A study of Mus musculus with 9 samples.

Results

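The genes described here are 39 interferon-stimulated and antigen presentation genes of the mouse, listed by name. They and the other gene lists below were chosen with earlier results of these data known. Each of the 39 symbols matched 1 Ensembl identifier among the 47729 in the count table, and all 39 passed the filter on low counts in each comparison. By the wording of the selection, 10 of them are gamma-like (Irf1, Gbp2, Gbp3, Gbp4, Gbp6, Gbp7, Tap1, Tap2, Psmb8 and Psmb9). A further 24 are type I-like (Ifit1, Ifit2, Ifit3, Ifit3b, Isg15, Irf7, Irf9, Stat2, Bst2, Ifi27, Ifi35, Ifi44, Ifih1, Ddx58, Oasl2, Oas1a, Rsad2, Usp18, Rtp4, Xaf1, Eif2ak2, Parp14, Trim25 and Cmpk2). The remaining 5 (B2m, H2-K1, H2-D1, Igtp and Irgm1) are placed in neither class and were kept apart.

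Bulk RNA sequencing of whole retinas gave 9 libraries, with 3 in each of 3 groups, all on the C57Bl6/J background. The control group carried floxed Yap alleles without a Cre, and the Yap CKO group carried floxed Yap with Rax-CreERT2, a Cre activated by tamoxifen and driven by the Rax promoter, which is active in Müller glia. Both received 4-hydroxytamoxifen at postnatal day 10 (P10) and were taken at P60, as 1 frozen retina per sample, with 1 µg of RNA entering each library. The C57 group was wild type, was taken at P30 without tamoxifen in its labels, and came from an earlier series. For the control samples the genotype field names the Yap CKO allele and no Cre, and the names of the P60 libraries carry the letters MNU, for which the labels describe no treatment. The labels do not say whether the retinas of a group came from separate animals, so p-values measure the spread between these samples.

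Interferons are cytokines of the antiviral and immune response. Type I interferons signal through the receptor chains Ifnar1 and Ifnar2 and assemble a complex that includes Stat2 and Irf9 and binds the interferon-stimulated response element. Interferon gamma signals through Ifngr1 and Ifngr2 and acts on genes with gamma-activated sites. Many target genes, among them Irf1 and the genes of the peptide-loading pathway, answer to both, so the class names here are labels and not assignments of a ligand. In the retina, microglia and Müller glia can express many of these genes.

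Promoter windows from RefSeq (GRCm38.p6), running from 250 bases before to 50 bases after a transcription start, were found for 32 of the 39 genes (Rtp4, Gbp6, Parp14, Usp18, Ifi27, Tap2 and Gbp4 had no entry). They were searched on both strands for the core of the interferon-stimulated response element, GAAA followed by any 2 bases and a further GAAA, and for the gamma-activated site, TTCNNNGAA. A site of each kind may overlap another. The first was present in 17 of 32 genes (53.1%), against 3.99% of the 27025 genes with such a window. The second was present in 9 of 32 (28.1%), against 9.55%. The response element core was found for 11 of 20 type I-like genes (55.0%), 3 of 7 gamma-like genes (42.9%) and 3 of 5 genes of neither class (60.0%), and the gamma-activated site for 5 of 20 (25.0%), 3 of 7 (42.9%) and 1 of 5 (20%). A match is a description of the letters, not a measured binding site.

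The 250 bases before the start are shown for 6 genes with matches in capitals, to set side by side windows with the first motif, the second, both or neither. Isg15 (chr4:156200819-156201068, minus strand) held 3 overlapping response element cores beginning 78, 72 and 66 bases before the start. Ifit3 (chr19:34583279-34583528, plus strand) held 2 on the reverse strand, beginning 156 and 122 bases before it, and Gbp2 (chr3:142620413-142620662, plus strand) held 1, beginning 59 bases before it. Irf1 (chr11:53769764-53770013, plus strand) held 1 gamma-activated site, TTCCCCGAA, beginning 90 bases before the start of the first of its 2 windows. Gbp7 (chr3:142530086-142530335, plus strand) held 2 gamma-activated sites, beginning 106 and 87 bases before its start, and 1 response element core on the reverse strand, beginning 53 bases before it, and Bst2, Eif2ak2, Igtp and Oas1a also held both motifs in their windows. Tap1 (chr17:34187306-34187555, plus strand) held neither motif. Tap1 is transcribed away from Psmb9, and the promoter windows of these 2 genes share 275 bases.
Isg15: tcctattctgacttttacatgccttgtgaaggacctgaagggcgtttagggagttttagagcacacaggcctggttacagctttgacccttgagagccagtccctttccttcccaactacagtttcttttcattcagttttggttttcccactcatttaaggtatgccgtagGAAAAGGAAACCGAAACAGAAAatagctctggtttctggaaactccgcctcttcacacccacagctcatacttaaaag
Ifit3: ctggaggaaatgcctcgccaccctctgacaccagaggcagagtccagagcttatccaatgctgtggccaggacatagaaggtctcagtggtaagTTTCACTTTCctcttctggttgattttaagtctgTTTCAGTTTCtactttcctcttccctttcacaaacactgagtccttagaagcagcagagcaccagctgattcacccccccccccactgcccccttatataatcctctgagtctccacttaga
Gbp2: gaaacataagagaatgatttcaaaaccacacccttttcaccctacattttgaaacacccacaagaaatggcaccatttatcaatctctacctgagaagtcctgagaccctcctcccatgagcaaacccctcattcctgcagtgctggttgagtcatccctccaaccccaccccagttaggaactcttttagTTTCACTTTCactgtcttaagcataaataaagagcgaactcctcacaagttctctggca
Irf1: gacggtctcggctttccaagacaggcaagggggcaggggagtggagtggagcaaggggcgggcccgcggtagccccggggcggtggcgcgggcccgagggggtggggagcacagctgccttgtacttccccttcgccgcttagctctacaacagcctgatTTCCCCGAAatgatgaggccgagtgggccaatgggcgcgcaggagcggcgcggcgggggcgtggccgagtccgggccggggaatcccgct
Gbp7: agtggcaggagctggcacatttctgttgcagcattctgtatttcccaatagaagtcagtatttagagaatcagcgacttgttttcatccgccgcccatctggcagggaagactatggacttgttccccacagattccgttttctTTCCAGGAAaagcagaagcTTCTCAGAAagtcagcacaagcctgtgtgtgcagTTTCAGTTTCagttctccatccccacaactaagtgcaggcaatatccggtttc
Tap1: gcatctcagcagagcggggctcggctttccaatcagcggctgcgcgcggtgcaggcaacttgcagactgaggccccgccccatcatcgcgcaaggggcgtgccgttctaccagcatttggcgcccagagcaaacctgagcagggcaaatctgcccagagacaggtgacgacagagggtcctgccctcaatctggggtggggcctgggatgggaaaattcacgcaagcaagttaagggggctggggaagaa

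The C57 libraries held 13760765 to 16808499 counts and the P60 libraries 34739679 to 37629264. Yap1, the deleted gene, had 23.4, 25.1 and 30.4 CPM (counts scaled to library size) in C57, 67.4, 61.0 and 57.6 in control and 15.3, 21.5 and 24.3 in Yap CKO libraries 1, 2 and 3 (Yap CKO against control log2 -1.60, SE 0.17, adjusted p = 0.0327). CPM values throughout were scaled by the trimmed mean of M-values (TMM) over the 9 libraries, and 1 C57 library, whose number matched no sample description, is called the unnumbered one and comes last. Rod photoreceptor markers were present in all libraries, with a mean log2(CPM + 1) over 14 genes of 11.8 to 12 in C57, 9.51, 7.28 and 8.53 in control and 9.64, 8.75 and 5.51 in Yap CKO. Yap CKO library 3 also stood apart by lens genes (12 genes summing to 1320 CPM, against at most 33.3 elsewhere). The Xist RNA and Y-linked transcripts gave a male pattern in 3 of 3 control, 1 of 3 Yap CKO (library 3) and 1 of 3 C57 libraries (library 2). The other libraries gave a female pattern, and the part of sex in the results below was not tested.

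The 39 genes were compared first between the P60 groups and C57, which shows their level against wild-type retina. By edgeR, 34 of 39 were higher in control than in C57 at an adjusted p under 0.05, with 23.1% of all 15820 tested genes higher. The median log2 difference was 1.88 over the 39 genes and 0.03 over all tested genes. In Yap CKO against C57, 29 of 39 were higher, with 20.3% of 15840 tested genes higher, and the median was 1.31 over the 39 genes and 0.02 over all. None of the 39 was lower in either comparison by edgeR, DESeq2 or limma-voom, against 22.4% of all genes lower by edgeR in control and 20.2% in Yap CKO, and 0 were lower at an unadjusted p under 0.05 (26.3% and 24.9% of all genes). The 3 libraries of each group did not overlap, with control the higher, in 35 of 39 genes (32.3% of all genes), and with Yap CKO the higher in 30 of 39 (30.3%).

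The gamma-like class was higher in control in 10 of 10 genes (median log2 2.57), the type I-like class in 19 of 24 (median 1.38) and the genes of neither class in 5 of 5 (median 2.35). In Yap CKO against C57 the counts were 8 of 10, 16 of 24 and 5 of 5, with medians of 1.91, 1.02 and 2.04. Both comparisons use the same C57 libraries. Age, the floxed allele, tamoxifen, source series and any treatment that the letters MNU stand for differ between C57 and both P60 groups and cannot be told apart, and the fall in rod markers given next runs along the same divide. With all larger libraries, P60 and C57, thinned to the smallest total among C57 libraries, 34 of 38 tested genes were higher in control (median 1.97) and 29 of 38 in Yap CKO (median 1.25). All 14 rod markers were lower in control than in C57 (median log2 -3.18) and 7 of 14 in Yap CKO (median -3.23), while in control 6 of 6 markers of astrocytes and reactive glia were higher (median 3.77), and in a bulk retina fewer cells of a type and less RNA per cell cannot be told apart. The rod level did not overlap between C57 and either P60 group. With it as a covariate, 6 of 39 genes were called in control against C57 with a median of 2.32 and 0 of 39 negative, and 7 of 39 in Yap CKO against C57 with a median of 1.26 and 4 of 39 negative.

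**Figure D1:**
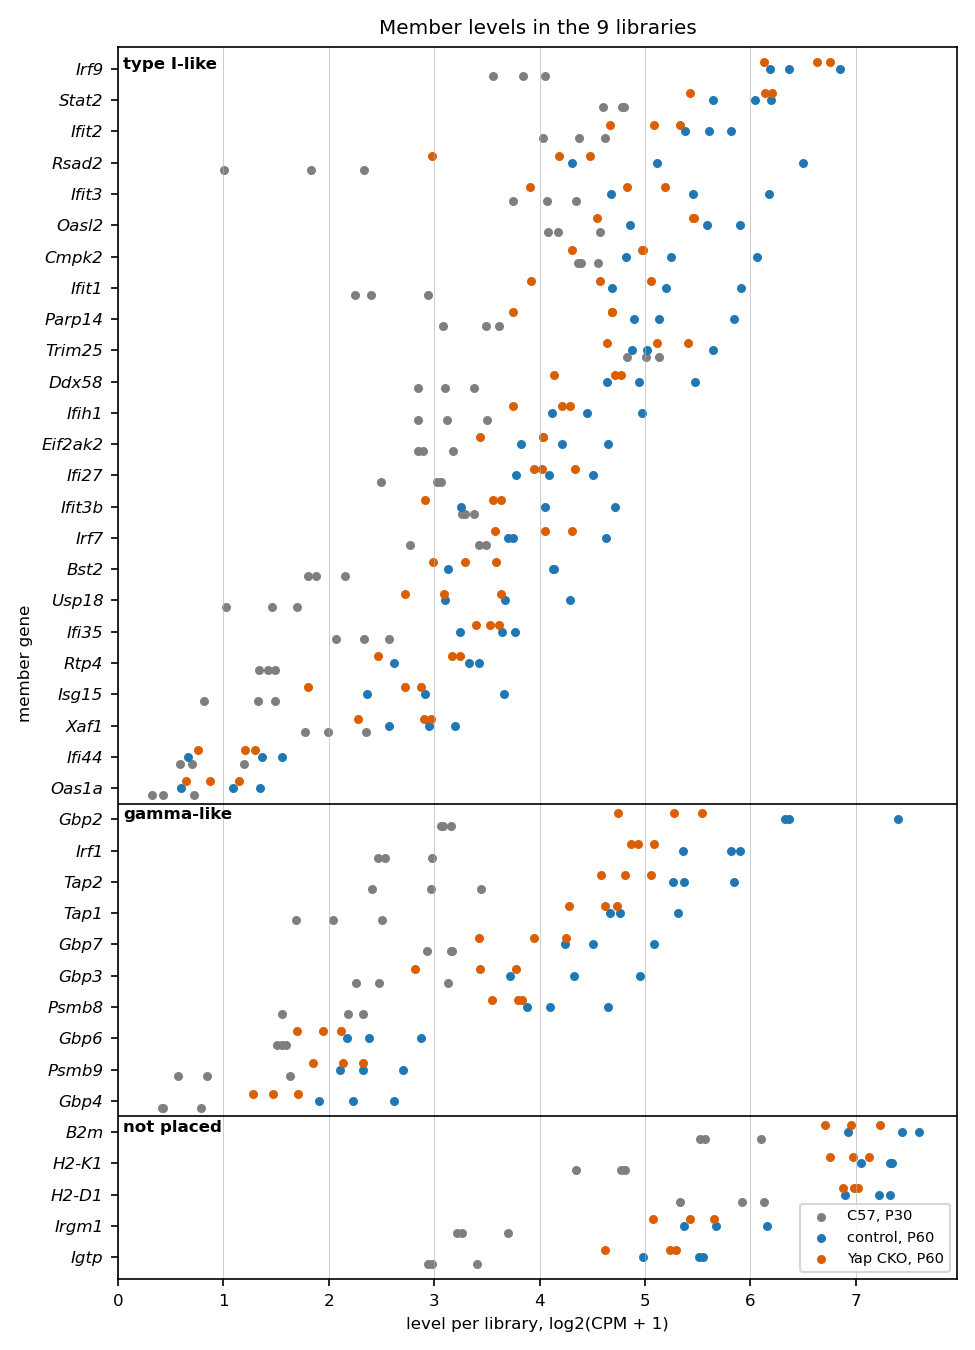
Levels of the 39 genes in each of the 9 libraries, as log2(CPM + 1) on the horizontal axis, 1 row per gene, ordered by mean level in control within each class. Grey points (C57) lie to the left of the blue (control) and orange (Yap CKO) points in most rows, and the highest blue point of a row is usually control library 1.

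Among the transcription factors, Irf9, the DNA-binding part of the type I complex, was at 13.3, 15.6 and 10.8 CPM in C57, 114, 71.8 and 81.8 in control and 107, 98.3 and 69.2 in Yap CKO. All 6 P60 libraries lay far above the 3 C57 libraries, and the 2 P60 groups covered the same range. The log2 difference from C57 was 2.72 (SE 0.22, adjusted p = 8.58e-05) in control and 2.75 (SE 0.22, adjusted p = 6.68e-05) in Yap CKO. Stat2, its partner, had 26.5, 27.0 and 23.3 CPM in C57, 72.3, 48.9 and 65.2 in control and 72.7, 69.5 and 42.0 in Yap CKO, with log2 differences from C57 of 1.25 and 1.22 (adjusted p = 0.000655 and 0.00285). Every P60 library exceeded every C57 library for Stat2 too. Irf7, which amplifies type I interferon production, had 10.2, 9.74 and 5.83 CPM in C57, 23.8, 12.4 and 12 in control and 18.8, 15.6 and 10.9 in Yap CKO. It did not pass in control (log2 0.87, adjusted p = 0.0581) or in Yap CKO (log2 0.77, adjusted p = 0.0517). Irf1, the gamma-like transcription factor, had 6.87, 4.54 and 4.79 CPM in C57, 59.0, 40.1 and 55.4 in control and 28.1, 29.7 and 33.0 in Yap CKO. Its 3 groups did not overlap, with log2 differences from C57 of 3.23 (SE 0.22, adjusted p = 4.28e-05) in control and 2.45 (SE 0.19, adjusted p = 6.85e-05) in Yap CKO.

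The cytoplasmic RNA sensors Ddx58 (RIG-I) and Ifih1 (MDA5), which detect viral RNA, were both higher in the P60 groups. Ddx58 had 6.20, 9.38 and 7.57 CPM in C57, 43.4, 29.8 and 23.9 in control and 16.6, 25.2 and 26.3 in Yap CKO (log2 against C57 2.03 and 1.51, adjusted p = 0.000596 and 0.00157). Ifih1 had 6.20, 10.3 and 7.70, 30.3, 20.8 and 16.4 and 12.4, 18.6 and 17.5 CPM in the same order (log2 1.44 and 0.95, adjusted p = 0.00375 and 0.0138). The control libraries spread more widely than the Yap CKO libraries in both genes, with control library 1 the highest.

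Of the 16 antiviral effectors, 13 were higher in control than in C57 and 10 in Yap CKO, with medians of 1.37 and 0.96. Ifit1, which binds foreign RNA caps, had 4.27, 6.71 and 3.75 CPM in C57, 59.1, 35.7 and 24.8 in control and 14.1, 32.3 and 22.7 in Yap CKO (log2 against C57 2.98 and 2.19, adjusted p = 0.000535 and 0.00180). Its relative Ifit2 had 15.3, 19.8 and 23.6, 55.2, 47.7 and 40.5 and 24.4, 33.0 and 39.2 CPM (log2 1.25 and 0.67, adjusted p = 0.00124 and 0.0375), with the 3 groups apart. Rtp4, an interferon-inducible membrane protein, had 1.68, 1.80 and 1.53, 9.72, 9.08 and 5.16 and 4.54, 8.46 and 8.02 CPM (log2 2.22 and 2.02, adjusted p = 0.000729 and 0.00116). Both P60 groups lay above C57 in these 3 genes.

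Parp14, an ADP-ribosyltransferase, had 7.46, 11.3 and 10.3 CPM in C57, 56.6, 34.0 and 28.8 in control and 12.5, 24.7 and 24.8 in Yap CKO (log2 against C57 2.0 and 1.05, adjusted p = 0.000969 and 0.0201), and its 3 groups did not overlap. Rsad2 (viperin), named after its values were seen because its log2 difference between control and C57 was the highest of the 39, had 1.01, 4.04 and 2.57 CPM in C57, 89.2, 33.6 and 18.8 in control and 6.88, 21.4 and 17.1 in Yap CKO. Its log2 differences from C57 were 4.15 (SE 0.68, adjusted p = 0.00205) and 2.51 (SE 0.54, adjusted p = 0.00842), and control library 1 alone held most of the control sum. Ifit3b, beside Ifit2 and Ifit3 on chromosome 19, did not pass in control (log2 0.84, adjusted p = 0.0855) or in Yap CKO (log2 0.05, adjusted p = 0.871). The exons of Ifit3 and Ifit3b share 51.2% and 45% of their 50-base words with other genes, chiefly each other, so their counts are uncertain. Oas1a, with 57.6% of its words shared with Oas1g, and Ifi44 did not pass in either comparison, and Xaf1, Cmpk2 and Ifit3 passed in control only, which is no test of a difference between the P60 groups. In control against C57, the call of Cmpk2 was lost without C57 library 1, 2 or the unnumbered one (log2 1.01, 1.00 and 1.10), that of Xaf1 without control library 1 (0.84), and that of Ifit3 without C57 library 1 or the unnumbered one (1.36 and 1.5). In Yap CKO against C57, leaving out Yap CKO library 2 ended the calls of Ifit2, Parp14, Oasl2, Eif2ak2 and Ifih1 (log2 0.66, 0.91, 0.77, 0.82 and 0.85), and leaving out Yap CKO library 3 those of Ifit2, Parp14 and Oasl2 (0.52, 0.91 and 0.78). Calls there were also lost for Ifit2 without C57 library 1 or 2 (0.52 and 0.68), Oasl2 without C57 library 1 (0.85), Eif2ak2 without C57 library 2 (0.87), and Parp14, Oasl2 and Rsad2 without the unnumbered C57 library (1.09, 0.81 and 2.51).

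In the ISG15 system, Isg15, a ubiquitin-like modifier, had 1.51, 1.80 and 0.764 CPM in C57, 11.7, 6.51 and 4.15 in control and 2.50, 6.35 and 5.60 in Yap CKO (log2 against C57 2.42 and 1.79, adjusted p = 0.00415 and 0.0120). Usp18, the protease that removes it and a brake on the type I receptor, had 1.76, 2.24 and 1.04, 18.5, 11.8 and 7.59 and 5.61, 11.4 and 7.54 CPM (log2 2.88 and 2.24, adjusted p = 0.000993 and 0.00188). Every P60 library lay above every C57 library for both. Trim25, the ubiquitin ligase that acts with Ddx58, overlapped between all groups, with 27.5, 34.1 and 31.2 CPM in C57, 49.2, 28.4 and 31.5 in control and 41.4, 33.7 and 23.9 in Yap CKO (log2 against C57 0.20 and 0.05, adjusted p = 0.470 and 0.860).

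The guanylate-binding proteins are large GTPases that act on pathogen-containing vacuoles, and 5 of 5 were higher in control than in C57 and 3 of 5 in Yap CKO. Gbp2 had 7.37, 7.50 and 7.91 CPM in C57, 168, 79.4 and 81.8 in control and 25.8, 37.6 and 45.7 in Yap CKO (log2 against C57 3.82 and 2.21, adjusted p = 0.000112 and 0.000201). Gbp4, a gene of low level here whose exons overlap those of Gbp9 on the same strand, had 0.335, 0.721 and 0.347, 5.13, 3.70 and 2.75 and 1.43, 1.77 and 2.27 CPM (log2 2.98 and 1.90, adjusted p = 0.000720 and 0.00498). In both genes the 3 groups were apart, with Yap CKO between C57 and control. Gbp7 had 6.62, 8.01 and 7.91, 32.9, 21.7 and 17.9 and 9.71, 14.4 and 18.0 CPM (log2 1.65 and 0.86, adjusted p = 0.00114 and 0.0224). In Yap CKO its call was lost without C57 library 2 and without Yap CKO library 2 or 3 (log2 0.90, 0.84 and 0.65). Gbp3 had 3.77, 7.79 and 4.58, 29.9, 19.0 and 12.2 and 6.04, 9.84 and 12.7 CPM, and passed in control (log2 1.88, adjusted p = 0.00534) but not in Yap CKO (log2 0.78, adjusted p = 0.103). Gbp6, whose exons share 70.7% of their 50-base words with other genes, was at log2 1.24 and 0.49 (adjusted p = 0.00693 and 0.132).

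Peptides for class I molecules are cut by the proteasome, in which Psmb8 and Psmb9 replace constitutive subunits after interferon exposure, and are carried into the endoplasmic reticulum by the Tap1-Tap2 transporter. These 4 genes lie side by side on chromosome 17, from position 34181987 to 34216321 (GRCm38, GENCODE M21), and all 4 were higher than C57 in both P60 groups. Psmb8 had 4.02, 3.53 and 1.94 CPM in C57, 24, 16.2 and 13.7 in control and 10.7, 12.9 and 13.3 in Yap CKO (log2 against C57 2.48 and 1.92, adjusted p = 0.000589 and 0.00102). Psmb9 had 2.1, 0.793 and 0.486, 5.50, 4.02 and 3.31 and 2.60, 4.01 and 3.38 CPM (log2 1.94 and 1.56, adjusted p = 0.00931 and 0.0243). Its exons overlap those of Tap1 on the opposite strand, and its call in control was lost without C57 library 2 (log2 1.75). In Yap CKO its call was lost without C57 library 2, without the unnumbered C57 library, and without Yap CKO library 2 or 3 (log2 1.36, 1.18, 1.40 and 1.56).

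Tap1 had 3.10, 4.69 and 2.22 CPM in C57, 38.8, 26.1 and 24.5 in control and 18.4, 23.7 and 25.6 in Yap CKO (log2 3.12 and 2.71, adjusted p = 0.000186 and 0.000234), and Tap2 had 9.89, 6.85 and 4.30, 56.4, 37.4 and 40.4 and 22.9, 27.1 and 32.3 CPM (log2 2.65 and 1.93, adjusted p = 0.000342 and 0.00124). The P60 libraries were above all C57 libraries in both genes. The level of Psmb8 relative to Psmb5, the constitutive subunit it replaces, was computed per length of exon after the values had been seen. It was 1.59% ± 0.267 (SD, n = 3) in C57, 6.12% ± 1.60 (SD, n = 3) in control and 3.47% ± 0.767 (SD, n = 3) in Yap CKO. Psmb9 relative to Psmb6 was 0.418% ± 0.188, 1.96% ± 0.469 and 1.28% ± 0.275 (SD, n = 3 each). Psmb10 relative to Psmb7 was 11.1% ± 6.20, 48.1% ± 7.58 and 43.3% ± 7.20 (SD, n = 3 each), with the P60 groups overlapping (41.6% to 56.4% in control and 37.9% to 51.5% in Yap CKO).

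The class I molecule itself had the highest levels of the 39 genes per length in both P60 groups, whereas in C57 Ifit3 (9.10 CPM per kb) lay above H2-K1. B2m, the light chain, stood at 61.6, 188 and 146 CPM per kb of exon in C57, control and Yap CKO (means of 3), and the heavy chains H2-K1 at 8.25, 51.3 and 42.0 and H2-D1 at 21.7, 55.1 and 48.0. Gbp2 followed in control at 43.7 CPM per kb, while Ifi44 was the lowest of the 39 at 0.223. By library, H2-K1 had 27.2, 26.3 and 19.3 CPM in C57, 161, 159 and 132 in control and 107, 124 and 139 in Yap CKO (log2 2.61 and 2.31, adjusted p = 3.32e-05 and 5.88e-05). H2-D1 had 69.0, 59.4 and 39.3, 159, 149 and 119 and 125, 129 and 117 CPM (log2 1.31 and 1.10, adjusted p = 0.00193 and 0.00331). B2m had 44.9, 67.7 and 46.4, 173, 193 and 120.5 and 104, 123 and 149.6 CPM (log2 1.58 and 1.20, adjusted p = 0.00107 and 0.00248). No P60 library fell into the C57 range for any of the 3.

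The immunity-related GTPases Igtp and Irgm1, which act on membranes of intracellular pathogens, also passed in both comparisons. Igtp had 6.70, 9.59 and 6.87 CPM in C57, 45.9, 44.7 and 30.6 in control and 23.5, 36.7 and 38.3 in Yap CKO (log2 2.35 and 2.04, adjusted p = 0.000159 and 0.000412). Irgm1 had 8.30, 12 and 8.61, 70.3, 50.2 and 40.4 and 32.8, 49.5 and 42.0 CPM (log2 2.44 and 2.06, adjusted p = 0.000223 and 0.000253). The P60 groups overlapped each other in both genes and neither reached down to C57.

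The comparison of Yap CKO with control, both at P60, asks how the 39 genes stand in retinas without Yap in the Cre-expressing cells. By edgeR, 0 of 39 genes passed, with 0.200% of 16539 tested genes called in either direction, and limma-voom called 0 as well. The estimates leaned lower in Yap CKO: 38 of 39 were negative (37 under upper-quartile scaling, where Stat2 was at 0.03), with Irf9 at 0.04, and the median was -0.47, against 0.01 and 47.7% negative over all tested genes. At an unadjusted p under 0.05, edgeR had 10 of 39 lower, with 9.25% of all genes lower. By limma-voom 9 were lower, with 2929 of 16539 genes at that p in either direction. DESeq2 called 7 of 39 at an adjusted p under 0.05 (Gbp2, Gbp3, Gbp4, Gbp7, Irf1, Tap2 and Ifit2), with 3.37% of all genes called lower by that tool.

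The gamma-like genes had a median log2 difference of -0.75 between Yap CKO and control, the type I-like genes -0.45 and those of neither class -0.30. An unadjusted p under 0.05 was reached by 8 of 10 gamma-like genes, by 1 of 24 type I-like genes (Ifit2) and by 1 of 5 others (H2-K1). These counts moved with the method: the gamma-like and type I-like counts were 9 of 10 and 6 of 24 by DESeq2, 7 of 10 and 5 of 24 in 1 fit over the 9 libraries, 9 of 10 and 9 of 24 without control library 3, and 4 of 10 and 0 of 24 with control library 1 left out or with the replicate block. Over all genes, in either direction, 2753 of 16539 reached that p by DESeq2 and 1322 of 16858 in the fit over the 9 libraries. It was 1894 of 16829 without control library 3, 2035 of 16832 without control library 1 and 2893 of 16539 with the block. The control and Yap CKO libraries did not overlap, with Yap CKO the lower, in 6 gamma-like genes (Irf1, Gbp2, Gbp4, Gbp6, Psmb8 and Tap2) and in 2 type I-like genes (Ifit2 and Parp14), 8 of 39 in all, against 12.1% of all tested genes. The difference between the classes was not tested. Moving Igtp and Irgm1, or all 5 unplaced genes, into the gamma-like class changed its median to -0.72 or -0.55.

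**Figure D2:**
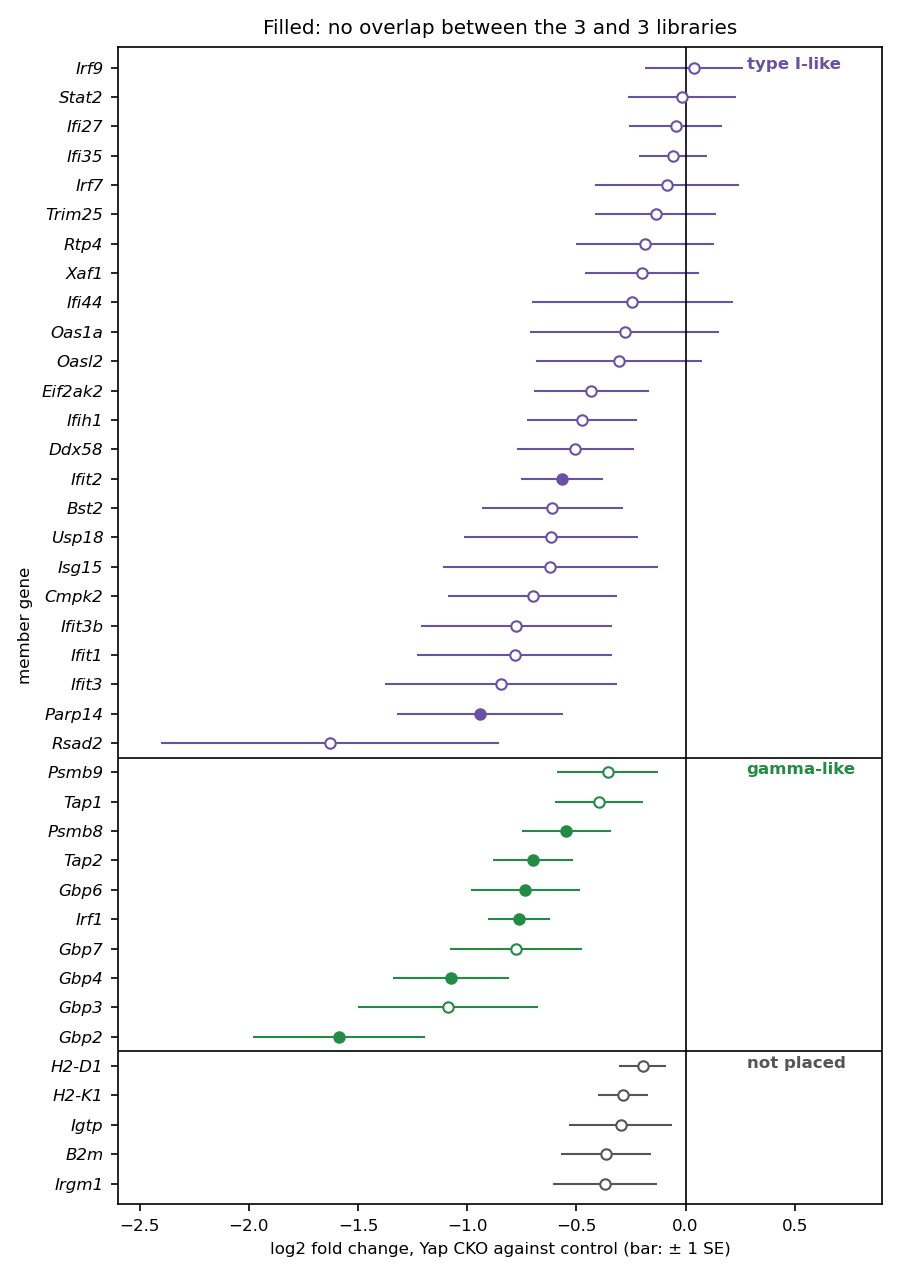
Log2 fold change of Yap CKO against control for the 39 genes (horizontal axis, bar of 1 SE from the edgeR fit), grouped by class; filled points mark genes whose 3 Yap CKO and 3 control libraries did not overlap. All points but Irf9 lie at or left of 0, from -1.63 for Rsad2 to 0.04 for Irf9, and 6 of the 8 filled points are gamma-like.

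Irf1 had the smallest adjusted p of the 39 in this comparison. The 3 control libraries had 59.0, 40.1 and 55.4 CPM and the 3 Yap CKO libraries 28.1, 29.7 and 33.0, so that the highest Yap CKO library stayed below the lowest control (log2 -0.76, SE 0.14, adjusted p = 0.0750). Across the alternatives its log2 value ran from -0.91 to -0.67 and its adjusted p from 9.67e-05 (DESeq2) to 0.274, with a call in 4 of 17 settings. Gbp4 had 5.13, 3.70 and 2.75 CPM in control and 1.43, 1.77 and 2.27 in Yap CKO (log2 -1.08, SE 0.27, adjusted p = 0.116), also called in 4 of 17 settings, with a log2 value from -1.27 to -0.83. Both genes passed without a count filter, by DESeq2, with the rod level as a covariate, and without Yap CKO library 3, the one with lens genes (adjusted p = 0.0494 for Irf1 and 0.0401 for Gbp4, over a range up to 0.274 and 0.350). In that order, these fits called 260 of 27316, 558 of 16539, 901 of 16539 and 817 of 16809 tested genes lower. Of the 39 genes they called 2, 7, 2 and 2. Yap CKO library 3 was also the only one of its group with a male pattern. Without it, male control libraries were set against female Yap CKO libraries, so sex and genotype cannot be told apart in that fit.

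Gbp2 had the second largest estimate. Its control libraries were at 168, 79.4 and 81.8 CPM and its Yap CKO libraries at 25.8, 37.6 and 45.7 (log2 -1.59, SE 0.39, adjusted p = 0.152). Without control library 1, at 168 CPM, the log2 value was -1.16 (adjusted p = 0.257, over a range of 0.0104 to 0.358). Tap2 had 56.4, 37.4 and 40.4 CPM in control and 22.9, 27.1 and 32.3 in Yap CKO (log2 -0.70, SE 0.18, adjusted p = 0.133), and Psmb8 had 24, 16.2 and 13.7 and 10.7, 12.9 and 13.3 (log2 -0.55, SE 0.20, adjusted p = 0.232), in both without overlap. The partners Tap1 (log2 -0.40, adjusted p = 0.359) and Psmb9 (log2 -0.36, adjusted p = 0.469) overlapped between the groups.

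Among the type I-like genes, Ifit2 had 55.2, 47.7 and 40.5 CPM in control and 24.4, 33.0 and 39.2 in Yap CKO (log2 -0.57, SE 0.19, adjusted p = 0.195), and Parp14 had 56.6, 34.0 and 28.8 and 12.5, 24.7 and 24.8 (log2 -0.94, SE 0.38, adjusted p = 0.287). In both the lowest control library was above the highest Yap CKO library. Rsad2 had the largest estimate of the 39 (log2 -1.63, SE 0.78, adjusted p = 0.370), with 89.2, 33.6 and 18.8 CPM in control and 6.88, 21.4 and 17.1 in Yap CKO. The groups overlapped, and without control library 1 its value was log2 -0.80. The class I genes H2-K1 (log2 -0.29, SE 0.12, adjusted p = 0.251), B2m (-0.37, adjusted p = 0.412) and H2-D1 (-0.20, adjusted p = 0.388) had smaller estimates. Irf9 (log2 0.04, SE 0.22, adjusted p = 0.960) and Stat2 (-0.01, SE 0.25, adjusted p = 0.988) were close to 0.

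**Figure D3:**
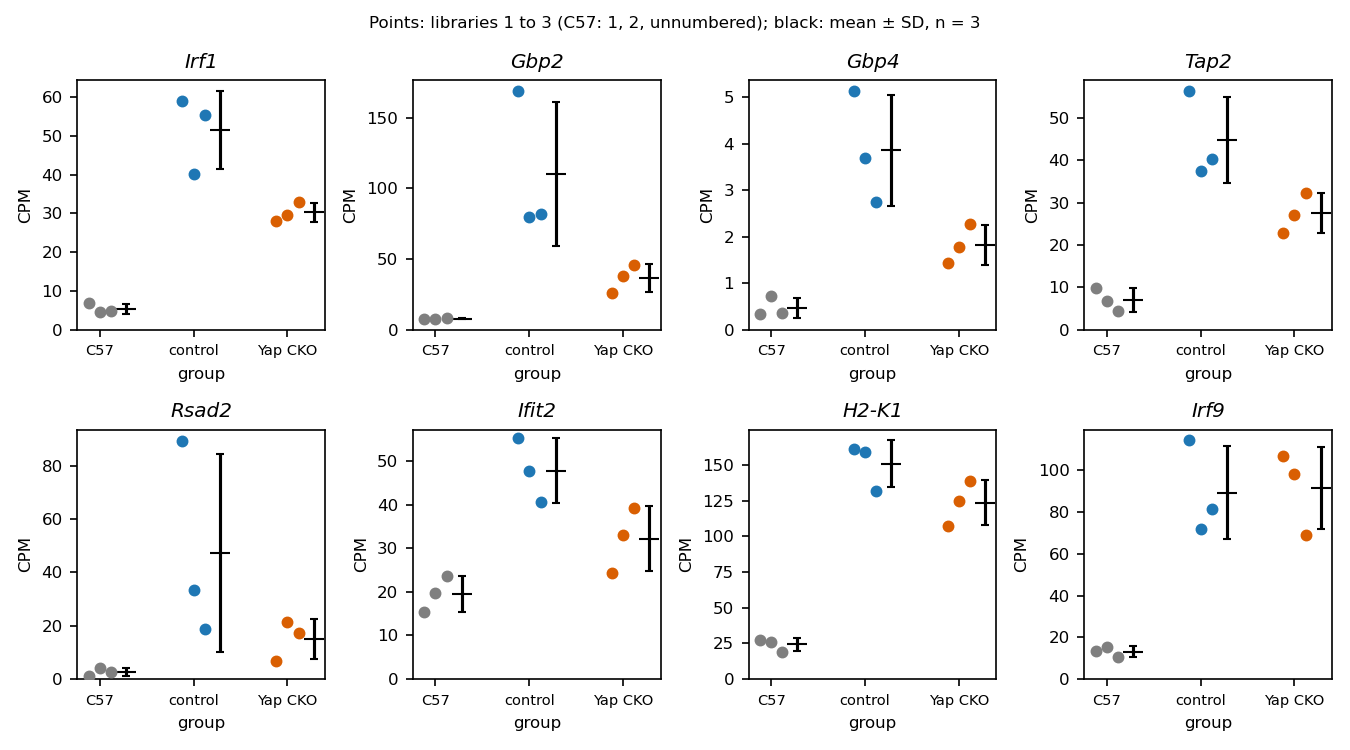
CPM of 8 of the genes in each library (points, libraries 1 to 3 from left to right within a group, the unnumbered C57 library last) with the mean and SD of each group (n = 3) in black; the vertical axis starts at 0 in each panel. Yap CKO libraries lie below all control libraries for Irf1, Gbp2, Gbp4, Tap2 and Ifit2, and overlap them for Rsad2, H2-K1 and Irf9.

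Most of the 39 genes had the same highest library among the 6 P60 libraries, and most had the same lowest. Control library 1 was the highest of the 6 for 34 of 39 genes, and Yap CKO library 1 the lowest for 30 of 39. Over all 14133 genes whose mean in these 6 libraries reached 1 CPM, the shares were 17.1% and 19.2%. For all 10 gamma-like genes, control library 1 was the highest and Yap CKO library 1 the lowest. These 2 libraries had the highest rod levels of their groups (9.51 and 9.64), and the part of the rod level was not tested beyond its use as a covariate. Irf9, Stat2, Irf7 and Trim25 differed, with Yap CKO library 1 the highest of its group. The highest Yap CKO library was library 2 for 16 genes and library 3 for 19. The sum over the gamma-like genes was 36.5 to 46.4 CPM in C57, 426, 252 and 255 CPM in control and 128, 164 and 189 CPM in Yap CKO. The sum over the type I-like genes was 205 to 252 CPM in C57, 936, 610.2 and 497 in control and 446, 582 and 488 in Yap CKO. The gamma-like sums of the P60 groups thus did not overlap, while the type I-like sums did.

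**Figure D4:**
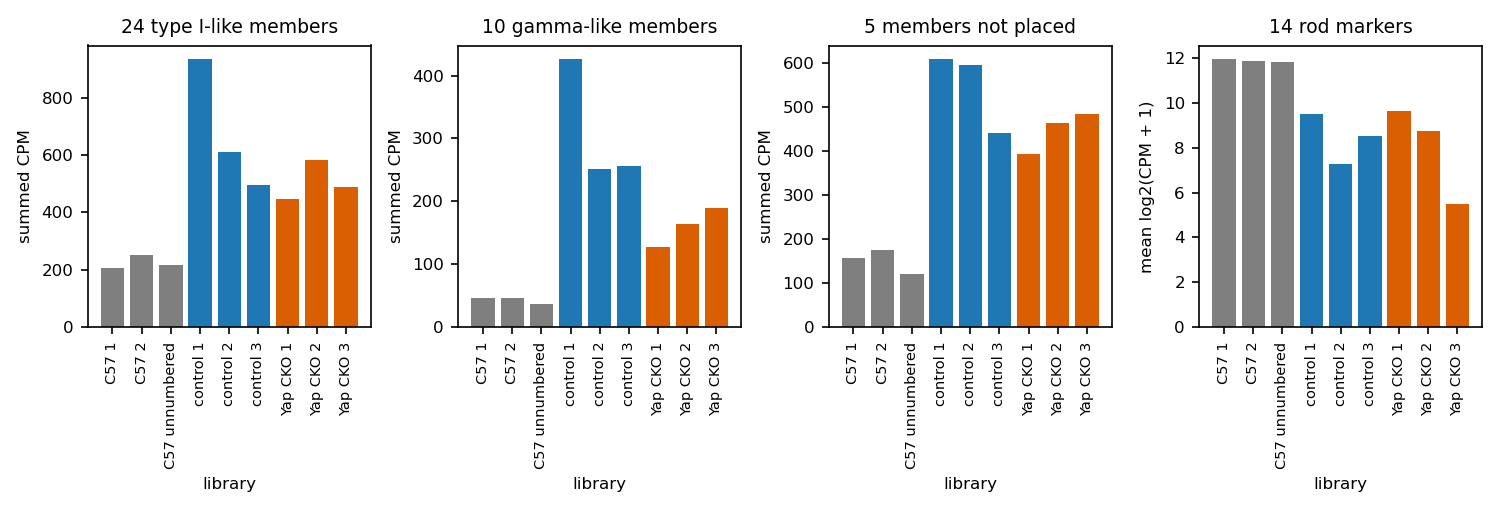
Summed CPM of the 24 type I-like, 10 gamma-like and 5 unplaced genes in each of the 9 libraries, and the mean log2(CPM + 1) of 14 rod markers (bars, 1 per library, all axes from 0). In the gamma-like panel the 3 control bars (252 to 426) stand above the 3 Yap CKO bars (128 to 189), whereas in the type I-like panel Yap CKO library 2 (582) stands above control library 3 (497).

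How far the estimates rest on single libraries was read from leaving each out. Without control library 1 the median over the 39 genes was -0.25 and without Yap CKO library 1 it was -0.31, with 33 and 34 of 39 negative. The type I-like median was -0.18 without control library 1, and the gamma-like median was -0.51, with 10 of 10 negative in each of the 6 fits. The number with an unadjusted p under 0.05 was 4 without control library 1, 6 without control library 2, 21 without control library 3, and 5, 5 and 8 without Yap CKO libraries 1, 2 and 3. Over all genes, in either direction, it was 2035 of 16832, 2226 of 16792 and 1894 of 16829 without control libraries 1, 2 and 3. Without Yap CKO libraries 1, 2 and 3 it was 2540 of 16766, 2142 of 16772 and 4733 of 16809. Without Yap CKO library 3, 2 genes were called (Gbp4 and Irf1), with 4.86% of all genes called lower in that fit, where sex and genotype coincided. With 1.5-fold changes put into simulated counts of this design, edgeR recovered 23.9%, and with 2-fold changes 62.7%, with 14 calls among unchanged genes. Each gene varied independently in the simulated counts, without differences shared by many genes of a library. These shares may therefore not hold for the 39 genes.

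Transcripts of the 9 interferon genes that were looked up were nearly absent, and other interferon genes were not looked up. Ifng had 1 count in 1 of 9 libraries (control library 3), Ifnb1 had 1 count in 1 library (control library 1), and Ifna1, Ifna2, Ifna4, Ifnk, Ifne, Ifnl2 and Ifnl3 had 0 in all 9. A count of 0 allows up to 3 counts, or 0.0737 to 0.0801 CPM in the P60 and 0.208 to 0.251 CPM in the C57 libraries, for counting error only.

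Of 10 genes for receptors and kinases of the pathway, 4 were higher and 1 lower in control than in C57, 3 higher and 1 lower in Yap CKO than in C57, and 0 passed in Yap CKO against control by edgeR (before adjustment, 3 were lower at p below 0.05). Ifnar2 was at log2 1.72 and 1.57 (adjusted p = 0.000386 and 0.00121) and Il10rb, a chain shared by several cytokine receptors, at 1.44 and 0.95 (adjusted p = 0.000253 and 0.00423). Ifngr1 was lower than in C57 (log2 -0.38 and -0.55, adjusted p = 0.0438 and 0.0117), and Ifngr2 was higher in control (log2 0.39, adjusted p = 0.0296). Ifnar1 did not pass (log2 0.01 and -0.18).

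The feedback inhibitors of JAK-STAT signalling Socs1 and Socs3 were the higher ones among 8 tested brakes, of which 2 were higher and 1 (Pias1) lower in each comparison with C57. Socs1 had 0.251, 0 and 0.208 CPM in C57, 8.55, 6.34 and 7.64 in control and 5.02, 4.74 and 5.27 in Yap CKO, and Socs3 had 1.59, 1.37 and 1.80, 62.3, 41.7 and 48.2 and 56.9, 47.9 and 41.2. Their log2 differences from C57 were 5.57 and 4.96 in control (adjusted p = 8.53e-05 and 9.76e-06). Between Yap CKO and control, Socs1 was at -0.58 (SE 0.14, adjusted p = 0.107) with no overlap between the groups, and Socs3 at -0.06 (adjusted p = 0.905). Of the nucleic acid sensing genes, 8 of 11 tested were higher in control (7 under RLE scaling) and 9 of 12 in Yap CKO, and 0 of 13 passed between the P60 groups by edgeR (before adjustment, 0 were lower and 1 higher at p below 0.05). Myd88 (log2 2.1), Ticam1 (1.20) and Irf5 (1.76) had the smallest p-values there (adjusted p = 9.54e-05, 0.000401 and 0.000750).

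A separate list of 27 other interferon-stimulated genes followed the members: 19 of 22 tested were higher in control than in C57 (median log2 2.52) and 19 of 22 in Yap CKO (median 1.93). Between Yap CKO and control 0 of 24 passed by edgeR, 6 had p below 0.05 before adjustment and were lower, and the median was -0.31. Cxcl10, a chemokine that attracts T cells, had at most 0.0838 CPM in C57, where it is a single read in 2 of the 3 libraries, 60.9, 25.0 and 18.8 CPM in control and 6.57, 14.5 and 9.53 in Yap CKO (Yap CKO against control log2 -1.77, SE 0.58, adjusted p = 0.224). Its P60 groups did not overlap. Ifitm3, a restriction factor of virus entry, had 11.6, 11.8 and 7.64, 91.3, 74.0 and 49.3 and 53.1, 77.2 and 70.2 CPM (log2 against C57 2.76 and 2.65, adjusted p = 0.000196 and 8.28e-05), with the P60 groups overlapping. Herc6, the main ISG15 ligase of the mouse, was at log2 2.47 and 1.63 (adjusted p = 0.000176 and 0.00263).

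Other GTPases induced by interferon gamma were higher than C57 in 5 of 7 tested genes in each P60 group, and all 7 were negative between Yap CKO and control under each of 3 scalings (median -0.68, 0 called by edgeR, 2 lower at p below 0.05 before adjustment). Gbp5, a relative of Gbp2 that takes part in inflammasome assembly, had 1.93, 2.88 and 2.08 CPM in C57, 55.6, 20.3 and 28.4 in control and 6.60, 8.14 and 11 in Yap CKO, with no overlap between any groups. It was at log2 3.88 in control against C57 (adjusted p = 0.000317) and -2.01 in Yap CKO against control (SE 0.44, adjusted p = 0.125). Irgm2 and Gbp9 were at log2 2.02 and 1.87 against C57 in control (adjusted p = 0.000830 and 0.00186), and at -0.47 and -0.71 between Yap CKO and control (adjusted p = 0.326 and 0.275).

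Of 17 other class I presentation genes, 12 were higher and 1 lower in control than in C57, 9 higher and 0 lower in Yap CKO than in C57, and 0 passed between the P60 groups by edgeR (before adjustment, 6 were lower and 1 higher at p below 0.05). Nlrc5, the activator of class I genes, had 0.251, 0.577 and 0.139 CPM in C57, 8.15, 9.08 and 6.63 in control and 5.96, 6.97 and 6.71 in Yap CKO (log2 against C57 4.57 and 4.28, adjusted p = 8.64e-05 and 0.000113). H2-Q4, a nonclassical heavy chain, was at log2 2.79 and Tapbpl, a tapasin relative, at 1.38 in control (adjusted p = 9.06e-05 and 0.000259). Psmb10, the third inducible proteasome subunit, was at 1.53 against C57 (adjusted p = 0.00561) and at 0.01 between Yap CKO and control (adjusted p = 0.982). The 14 constitutive subunits went another way: 0 were higher and 3 lower in control than in C57 (Psmb7, Psma5 and Psma3 at log2 -0.63, -0.55 and -0.56; 4 lower under RLE scaling). Between Yap CKO and control all 14 were positive under each of 3 scalings (median 0.16), with 0 called by edgeR and 9 of 14 higher at p below 0.05 before adjustment (8.59% of all genes).

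**Figure D5:**
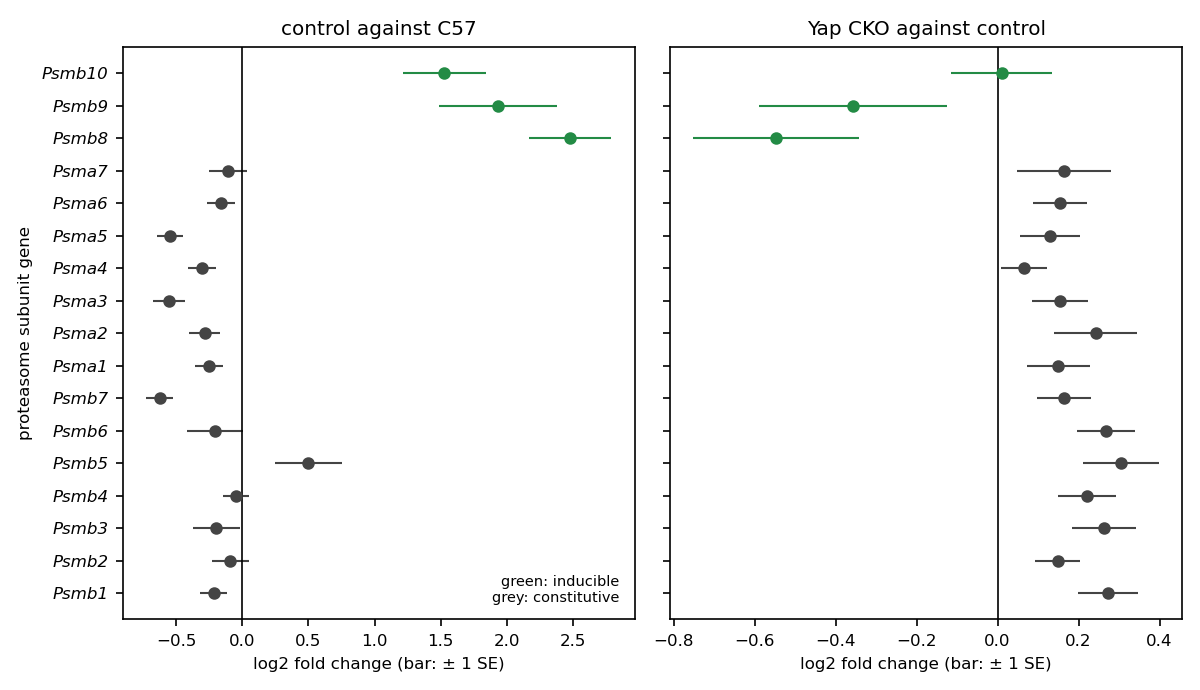
Log2 fold change (points, with bars of 1 SE from the edgeR fit) of the 3 inducible (green) and 14 constitutive (grey) proteasome subunit genes in control against C57 (left) and Yap CKO against control (right). The inducible subunits lie at 1.53 to 2.48 on the left, apart from the constitutive ones (-0.63 to 0.50), while on the right Psmb8 and Psmb9 lie below 0 and the 14 constitutive subunits between 0.07 and 0.30.

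Class II presentation, the pathway of professional antigen-presenting cells, was higher in 4 of 7 tested genes in each P60 group against C57. Cd74, the invariant chain, had 0.168, 0.793 and 1.53 CPM in C57, 9.0, 5.20 and 3.78 in control and 3.70, 9.19 and 6.58 in Yap CKO (log2 against C57 2.76 and 2.88, adjusted p = 0.00511 and 0.00496). H2-Ab1 and H2-Eb1 were at log2 1.25 and 1.93 in control (adjusted p = 0.0116 and 0.0120), and Ciita, the class II activator, was under 1 CPM in every library and was not tested. Between Yap CKO and control 0 of 7 passed by edgeR, and 0 had an unadjusted p under 0.05.

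Markers of cells that can carry these genes were read beside them. The summed level of 15 microglia and macrophage markers was 119 to 136 CPM in C57, 138 to 155 in control and 137 to 188 in Yap CKO, and 4 of the 15 were higher and 3 lower in control than in C57. Markers of Müller glia, in which the Rax promoter is active, summed to 7224 to 7983 CPM in C57, 4208 to 4743 in control and 3625 to 4704 in Yap CKO (10 genes), with 2 higher and 6 lower in each P60 group than in C57. Markers of astrocytes and reactive glia summed to 63.8 to 109 CPM in C57, 1254 to 1537 in control and 1769 to 2190 in Yap CKO (6 genes). Between Yap CKO and control 0 of either list passed by edgeR, with 2 Müller glia markers lower, and 1 reactive glia marker lower and 2 higher, at p below 0.05 before adjustment. Of 6 monocyte markers, the sum was 55.3 to 69.7 CPM in C57, 126 to 157 in control and 124 to 213 in Yap CKO. T cell markers summed to 1.84 to 2.36, 3.02 to 4.32 and 2.57 to 3.75 CPM (10 genes), and natural killer cell, B cell and neutrophil markers to under 1 CPM in every library (7, 4 and 5 genes). Between Yap CKO and control, 0 of 15 microglia markers passed by edgeR (before adjustment, 0 were lower and 1 higher at p below 0.05), with a median of 0.17, while the median over the 39 genes was -0.47. The part of these cells in the results was not tested.

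The authors' deposited table for Yap CKO against control listed 305 genes, 231 lower and 74 higher in Yap CKO. By its name, the table was already cut on p, fold change and level, so genes with small differences could not appear in it. It held 12 of the 39 genes, 7 type I-like and 5 gamma-like, all 12 lower. The authors' deposited table gave an adjusted p under 0.05 for 2 of the 12, against 156 of all 305 listed genes. The 2 were Gbp2 (log2 -1.59, adjusted p = 2.27e-06) and Irf1 (log2 -0.76, adjusted p = 0.00555), and Rsad2 was at log2 -1.63 (adjusted p = 0.0771).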

How the data were processed

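Bulk RNA was sequenced from 9 mouse retinas, 3 per group. The authors deposited a table of whole-number counts of reads per gene; per the submitters' processing notes, HISAT2 2.1.0, featureCounts and edgeR were used with GRCm38, with strand setting and annotation not given in the sources used here. The authors' deposited table of comparisons gives log2 fold changes and p-values, printed only where named as theirs.

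From the counts, genes were filtered with filterByExpr (minimum count 10, minimum total 15), scaled by TMM, and tested with edgeR 4.0.16 (R 4.3.3, quasi-likelihood F-test, robust), each comparison on its own 6 libraries, with Benjamini-Hochberg adjustment over all tested genes at 0.05. The standard error is the size of the log2 fold change divided by the square root of F. Alternatives were other scalings and filters, DESeq2 1.42.0, limma-voom (limma 3.58.1), bias-adjusted deviances, 1 fit over 9 libraries, a replicate block, a rod level covariate and each library left out. In the comparisons with C57, libraries were also thinned to the smallest total. The method was tested on simulated data without differences shared by many genes of a library. In control against C57 (15820 genes), 10.4%, 62.7% and 97.0% of 1.5-, 2- and 4-fold changes were recovered, with 7 calls among unchanged genes. In Yap CKO against C57 (15840 genes) the shares were 5.97%, 38.8% and 90.9%, with 12 such calls. Yap CKO against control had 14 such calls.

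Within each role, values in every library were given for up to 4 genes with the smallest p in control against C57 and up to 2 in Yap CKO against control; from each pathway list up to 3 genes with the smallest p in control against C57 were named. A gene that this rule would name is not reported here. The genes and lists were chosen with earlier results of these data known. Total counts were 13760765 to 37629264 per library.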

Additional observations from a re-analysis of the deposited data

How the results depend on the processing

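Counts of called genes in Yap CKO against control moved widely. Against 33 genes, 15 were called with RLE scaling, 17 with upper-quartile scaling, 343 without a count filter, 15 with a filter of 1 CPM in 3 libraries, 922 by DESeq2, 16 by limma-voom, 15 with bias-adjusted deviances, 60 in 1 fit over 9 libraries and 1659 with the rod level covariate, and leaving out 1 library gave 0 to 1473. Of the 39 genes, 0 were called, against 2 without a filter, 7 by DESeq2, 2 with the rod level covariate and 0 to 2 with 1 library left out. In control against C57, 7202 genes and 34 of the 39 were called, against 240 and 6 with the rod level covariate (median of the 39 at 2.32, against 1.88) and 5084 to 9255 and 32 to 36 with 1 library left out. In Yap CKO against C57, 6419 and 29 became 1217 and 7 with that covariate (median 1.26, against 1.31), and 3905 to 8013 and 22 to 33 with 1 library left out. The cause was not tested.

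The correlation of deviations between same-numbered control and Yap CKO libraries was 0.53, -0.08 and 0.01. Of the same-numbered pairs, only the libraries numbered 1 correlated best with each other. With so few libraries per group, the deviations within a group depend on each other, so these correlations cannot show or exclude a pairing. The libraries numbered 1 also had the highest rod levels of their groups, and the part of the rod level in these correlations was not tested. With the replicate block, 0 of the 39 genes and 45 of all genes were called in Yap CKO against control. The counts were 36 and 5908 in control against C57 and 30 and 5560 in Yap CKO against C57. The block fits with C57 are no check on the calls, because the unnumbered C57 library shared its number with no P60 library. That library and its unmatched P60 library then add nothing to the comparison of groups. The smallest adjusted p over all genes by edgeR was 1.39e-147 and 4.94e-129 there, against 2.14e-06 and 4.94e-06 without the block.

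Some estimates changed sign, Gbp3 from 0.78 and Ifi44 from 0.45 in Yap CKO against C57 among them. In Yap CKO against control, Stat2 was at 0.027 with upper-quartile scaling and 0.059 with the rod level covariate, and Irf7 at 0.027 with that covariate. With 1 library left out, log2 values in that comparison ran from -0.16 to 0.20 for Stat2, -0.10 to 0.24 for Irf9, -0.27 to 0.30 for Irf7, -0.61 to 0.075 for Oas1a, -0.21 to 0.19 for Ifi27, -0.21 to 0.054 for Ifi35, -0.61 to 0.10 for Ifi44, -0.37 to 0.022 for Xaf1, -0.42 to 0.051 for Rtp4 and -0.33 to 0.13 for Trim25. In control against C57, Trim25 ran from -0.073 to 0.36. In Yap CKO against C57, Ifit3b ran from -0.079 to 0.27 and Trim25 from -0.14 to 0.25, the replicate block gave -0.13 for Ifit3b, and the rod level covariate gave -0.51 for Ifit3b, -0.15 for Cmpk2, -0.32 for Ifi44 and -0.11 for Gbp3. Of the single-gene values under the alternatives, 587 of 624, 614 of 659 and 590 of 659 kept their direction and their side of the threshold in the 3 comparisons. The totals with C57 include the replicate block fits, which are no check on the calls. In Yap CKO against control, edgeR with TMM scaling called 0 of the 39 genes, so keeping the side there meant staying uncalled.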
